A study of Drosophila melanogaster with 12 samples.

Results

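Dopaminergic and cholinergic neurons of control flies were compared gene by gene, using the 3 arrays labelled control dopaminergic and the 3 labelled cholinergic control, which are 6 of the 12 arrays of the series. Each array held amplified cDNA from a pool of 115 green fluorescent neurons, sorted from the dissociated adult brains of at least 15 flies. The other arrays, 3 per neuron type, came from parkin mutants, described in the design text as null for this ubiquitin ligase of mitochondrial quality control. They entered the estimate of the spread and are set beside the control values at the end. The genotype of the controls beyond the word control, the driver of the fluorescent protein, and the sex and age of the flies are not given in the sources used here, so it is not known which dopaminergic or cholinergic neurons a pool holds. Trypsin treatment in a warm incubation, sorting and One-Direct amplification were common to all pools.

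A neuron's transmitter is set by the enzymes that make it, the vesicular transporter that loads it and the plasma membrane transporter that recovers it. In flies, dopamine is made by tyrosine hydroxylase (ple) and aromatic amino acid decarboxylase (Ddc), loaded by Vmat and recovered by DAT. Acetylcholine, the main excitatory transmitter of the fly brain, is made by ChAT, loaded by VAChT and broken down by Ace, and the choline is recovered by ChT. Transcription factors fix such programmes during development, and receptors, channels and adhesion molecules set what a neuron hears, how it fires and whom it contacts.

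The genes of dopamine handling separated the sorts. ple measured 10.39, 10.56 and 10.57 (log2 intensity) on the dopaminergic arrays and 3.77, 4.18 and 3.61 on the cholinergic arrays. Vmat, by the first of its 2 tested probe sets, measured 12.54, 12.25 and 12.73 against 5.91, 6.59 and 6.33. Fer2, a bHLH transcription factor needed by dopaminergic neurons of the protocerebral cluster, measured 10.31, 9.59 and 10.82 against 5.05, 6.02 and 5.16. By these probe sets every dopaminergic array lay at least 3 log2 units above every cholinergic array. The second tested Vmat probe set, given below, was apart by 2.66. DAT measured 10.56, 9.58 and 11.33 against 3.82, 4.47 and 8.85, so that cholinergic replicate 3 came near the dopaminergic arrays although the groups did not overlap. The 4 marker genes of the dopaminergic label therefore all measured higher in the sort that carries it. Since the driver is not given, it is not known whether one of these genes also chose the cells.

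Differences are dopaminergic minus cholinergic, on the log2 scale with n = 3 arrays per group. They were 6.65 ± 1.19 for ple (limma SE) and 6.23 ± 0.99 for Vmat by its first probe set. Fer2 differed by 4.83 ± 0.77 and DAT by 4.78 ± 1.65. None passed at an adjusted p of 0.05 in the limma fit over all 12 arrays. The adjusted p was 0.251 for ple, 0.149 for Vmat and 0.149 for Fer2. The spread in that fit includes the mutant arrays: the SD of ple was 0.098 in dopaminergic controls, 0.295 in cholinergic controls and 3.31 in dopaminergic mutants. With only the 6 control arrays in the fit, the difference of ple was 6.65 ± 0.37 with an adjusted p of 0.0311, and ple was then the 1 probe set that passed.

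Across the whole array, 0 of 12460 probe sets tested passed at an adjusted p of 0.05 in limma (0.00%), and the smallest adjusted p was 0.119. At an unadjusted p of 0.05, 452 passed (3.63%). The text therefore describes genes by their values and by whether the 3 arrays of each sort overlapped. With 1 probe set per gene, the dopaminergic arrays all lay above the cholinergic ones for 408 of 7601 genes (5.37%) and below them for 239 (3.14%), 8.51% in either direction. The median difference over all genes was 0.07. Nothing in the labels tells whether replicate pools were drawn from different fly cohorts. The p-values hence reflect array-to-array spread, which may be technical, and 3 arrays per group bound the precision.

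The 6 control arrays had medians from 5.70 to 5.91 and 2380 to 2911 probe sets that reached a log2 value of 8, the fewest on cholinergic replicate 2. Arrays of the same sort correlated with a median r of 0.654 over 6 pairs and arrays of different sorts with a median r of 0.638 over 9 pairs, taken over probe sets that are not independent of each other. One mutant array, dopaminergic replicate 3, was unlike the rest, with r of 0.355 to 0.486 against the control arrays and 1627 probe sets that reached 8. Brightness depends on the probe set, so differences are taken between arrays for the same probe set. Where genes are called bright or dim, ranked by level or counted at a log2 value of 8, the result also depends on their probe sets. In pools of this kind, fewer cells of a type and less RNA per cell cannot be told apart.

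Of the 12 genes listed for dopamine synthesis and handling, 10 had a named probe set and 8 were tested. The groups did not overlap for 5 of the 8, all higher in the dopaminergic sort, and the list's median difference was 2.80. Ddc, which also serves serotonin synthesis, measured 11.33, 11.29 and 11.82 against 9.81, 8.65 and 9.64, a difference of 2.11 ± 1.22. Unlike ple, it stayed above a log2 value of 8 on every cholinergic array. The second tested Vmat probe set measured 12.74, 12.72 and 12.82 against 10.06, 7.79 and 9.98, in the same direction but by less (3.49 ± 1.94). Pu, the GTP cyclohydrolase that opens the synthesis of the cofactor of ple, measured 10.80, 9.09 and 11.73 against 10.11, 5.13 and 10.59. Its groups overlapped, and its low value came from cholinergic replicate 2.

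For the acetylcholine genes the sorts overlapped. ChAT measured 11.30, 9.28 and 11.39 on the dopaminergic arrays and 11.21, 10.32 and 9.72 on the cholinergic arrays, a difference of 0.24 ± 1.26. VAChT measured 9.74, 9.34 and 6.01 against 9.79, 8.54 and 10.38, a difference of -1.20 ± 1.16. That difference rests on dopaminergic replicate 3 and was -0.03 without it. ChT measured 11.54, 11.10 and 11.09 against 11.14, 5.12 and 11.82, with cholinergic replicate 2 again low. Ace measured 9.19, 8.55 and 10.11 against 10.60, 10.33 and 10.09, a difference of -1.05 ± 1.51. All 4 genes of this list were tested, 2 measured higher in each sort, and for none did the groups stay apart. With arrays centred on their medians, 1 of them, Ace, lay higher in the cholinergic sort without overlap. Under quantile normalization none did. ChAT, VAChT and Ace reached a log2 value of 8 on all cholinergic arrays, and on all dopaminergic arrays except for VAChT on replicate 3. For Ace the overlap was small, with 2 dopaminergic arrays below every cholinergic one. With these SEs, a moderate difference was not detectable.

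**Figure D1:**
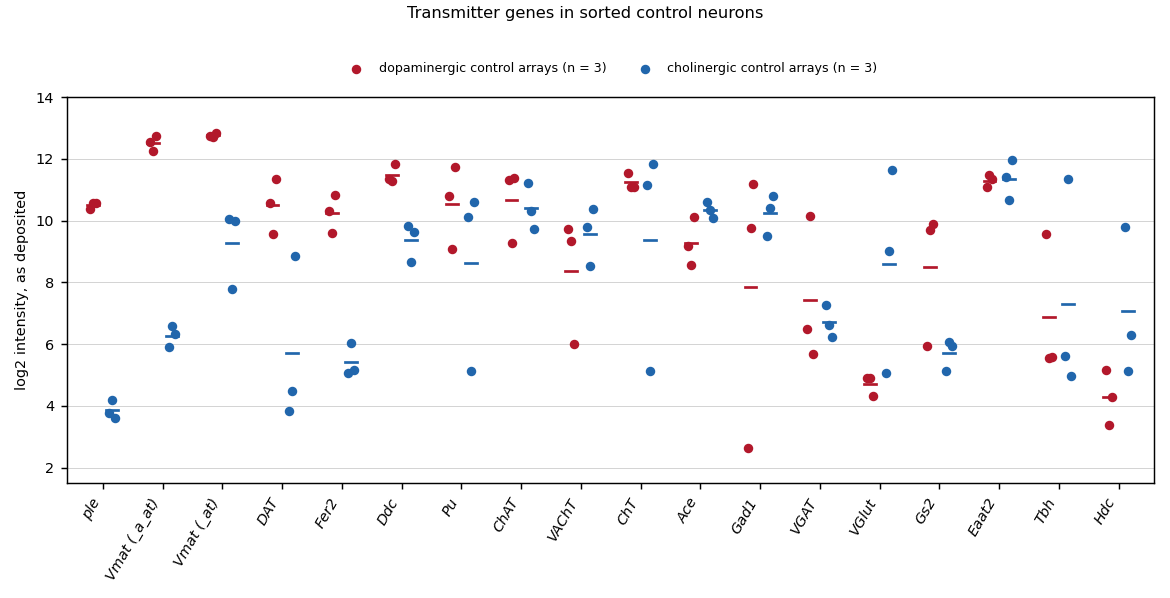
Log2 intensity as deposited (vertical axis) of transmitter genes on the 3 dopaminergic (red) and 3 cholinergic (blue) control arrays; points are arrays and short lines group means, and the first and second Vmat columns are its tested probe sets in the order of the text. ple sits near 10.5 on the dopaminergic arrays and near 3.8 on the cholinergic ones, while ChAT, VAChT, ChT and Ace overlap.

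Among genes of other transmitters, several were high on some arrays of a sort and low on others. Gad1, which makes GABA, measured 2.63, 9.76 and 11.18 on the dopaminergic arrays and 9.49, 10.41 and 10.79 on the cholinergic arrays. The low dopaminergic replicate 1 sets the difference of -2.37 ± 2.15, which became 0.24 without that array. VGlut, the vesicular glutamate transporter, measured 4.90, 4.90 and 4.31 against 5.07, 9.03 and 11.65 by its brighter probe set, a difference of -3.88 ± 1.51. Cholinergic replicates 2 and 3 carried this signal and replicate 1 did not, and the gene's other probe set differed by 0.23. VGAT measured 6.48, 10.14 and 5.68 against 7.26, 6.63 and 6.24, high on a single dopaminergic array.

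Of the 9 tested GABA and glutamate genes, the groups did not overlap for 2, VGlut and the GABA transporter Gat, both higher in the cholinergic sort. The share of all genes in this direction was 3.14%, and the gaps of the 2 genes were small, at 0.17 and 0.28. Gat, a glial gene in the fly brain, measured 4.74, 3.71 and 4.43 against 9.80, 5.53 and 5.01, mainly through cholinergic replicate 1. Gdh, glutamate dehydrogenase, measured 7.28, 6.10 and 9.49 against 10.27, 9.47 and 10.46, a difference of -2.44 ± 1.08. Gs2, a glutamine synthetase, ran the other way with 5.94, 9.69 and 9.88 against 5.14, 6.08 and 5.95. Among serotonin, octopamine, tyramine and histamine genes only 2 of 7 named ones were tested. Hdc, which makes histamine, measured 5.17, 3.39 and 4.30 against 9.79, 5.12 and 6.29. Tbh, which makes octopamine, was high on 1 array of each sort, at 9.55 in dopaminergic replicate 1 and 11.35 in cholinergic replicate 2. The serotonin transporter SerT stayed between 4.34 and 5.00 on all 6 arrays and was not tested.

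Among the receptors for these transmitters, Oct-TyrR, which binds octopamine and tyramine, had the smallest p. It measured 6.66, 8.31 and 8.84 on the dopaminergic arrays and 4.73, 4.48 and 4.96 on the cholinergic arrays, a difference of 3.21 ± 0.55 with an adjusted p of 0.2. The groups were apart by more than a log2 unit. In the mutants its direction was the opposite, as given below. The serotonin receptor 5-HT1B measured 8.39, 9.47 and 5.23 against 5.02, 4.87 and 5.02, with dopaminergic replicate 3 close to the cholinergic values, and its other probe set overlapped. These were the 2 of 14 tested amine receptors without overlap, and 11 of the 14 measured higher in the dopaminergic sort, beside 8.51% of all genes without overlap and 4234 of 7601 that measured higher there. The dopamine autoreceptor gene Dop2R measured 6.61, 11.06 and 12.41 against 11.23, 12.02 and 12.33, with 1 low dopaminergic array and overlapping groups.

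Of 10 tested acetylcholine receptor genes, nAChRalpha2 was the 1 without overlap, at 9.05, 7.91 and 8.42 against 7.33, 6.62 and 7.70. Of 18 tested GABA, glutamate and histamine receptor genes, it was Nmdar1, a subunit of the NMDA-type glutamate receptor, at 9.47, 8.29 and 8.59 against 7.60, 5.90 and 7.82. Both measured higher in the dopaminergic sort, by 1.24 ± 0.68 and 1.68 ± 1.53. The share of all genes without overlap was 5.37% in this direction and 8.51% in either. The lists' medians were 0.25 and 0.22, beside 0.07 for all genes. Receptor genes bright in both sorts, at or above the 90th percentile of the array on all 6, were nAChRalpha4 at 9.95 to 11.75, the glutamate-gated chloride channel GluClalpha at 11.26 to 12.36 and the dopamine and ecdysteroid receptor DopEcR at 8.56 to 11.79. Over the array, 211 of 11982 genes were bright in this sense (1.76%).

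The peptide receptor Dh44-R1, for diuretic hormone 44, measured 8.87, 8.25 and 7.17 against 5.27, 5.45 and 5.40, a difference of 2.73 ± 0.73. SPR, the sex peptide receptor, measured lower in the dopaminergic sort, at 8.15, 7.83 and 8.62 against 9.99, 8.82 and 9.90. They were the 2 of 17 tested peptide receptors without overlap, beside 8.51% of all genes in either direction. Among 30 tested neuropeptide and processing genes, 15 measured higher in each sort. The groups did not overlap for 3 higher in the dopaminergic sort (Phm, FMRFa and sNPF) and for 1 higher in the cholinergic sort (Burs).

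Phm, the monooxygenase of peptide amidation, measured 6.68, 9.19 and 9.83 against 5.89, 5.74 and 5.72. The neuropeptide gene sNPF measured 11.06, 11.05 and 10.66 against 9.50, 9.16 and 8.88, tight within each sort at a difference of 1.74 ± 1.58. Some peptides were bright on single arrays. Dh44 measured 2.42, 2.37 and 2.35 on the dopaminergic arrays and 7.30, 2.38 and 11.02 on the cholinergic ones, and AstC measured 4.34, 10.49 and 9.88 against 6.74, 5.83 and 5.87. Processing and release genes were shared: Cadps, which primes dense-core vesicles, ran from 11.96 to 12.91, the vesicle protein IA-2 from 11.37 to 12.49, the amidating lyase Pal2 from 10.46 to 11.83 and the proprotein convertase amon from 9.43 to 11.93.

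E(spl)m5-HLH, a bHLH repressor known as a Notch target, had the smallest p of all probe sets. It measured 4.97, 4.44 and 4.45 on the dopaminergic arrays and 9.82, 8.93 and 7.75 on the cholinergic arrays, a difference of -4.22 ± 0.55 with an adjusted p of 0.119. The lowest cholinergic array was 2.78 above the highest dopaminergic one. Outside the cholinergic controls it lay below the array's median, apart from cholinergic mutant replicate 3, where value and median were both 5.59. It was thus tested because of the group where it is high. Within the 37 tested bHLH and Sox genes, the groups did not overlap for 5 higher in the cholinergic sort and 3 higher in the dopaminergic sort. The shares of all genes were 3.14% and 5.37% in these directions. The 5 were E(spl)m5-HLH, Mitf, da, emc and Sox102F, and the 3 were Fer2, itself a marker gene of the dopaminergic label, cic and SoxN. Under quantile normalization the counts were 3 in the cholinergic sort and 3 in the dopaminergic sort. With arrays centred on their medians they were 5 and 2.

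Mitf, a regulator of lysosomal genes, measured 3.80, 5.39 and 5.47 against 6.31, 9.21 and 7.65. da, the common partner of class II bHLH proteins, measured 7.42, 6.87 and 7.29 against 10.19, 9.27 and 7.56. emc, an HLH protein without a DNA-binding basic region that blocks such partners, measured 8.22, 8.29 and 9.90 against 10.13, 10.35 and 10.57. A partner and its inhibitor thus measured higher in the same sort. SoxN was set apart by a single low array, with 5.10 in cholinergic replicate 2 and 10.21 to 10.82 on the others.

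Of 50 tested homeodomain genes, Optix, scro and CG34367 lay higher in the dopaminergic sort without overlap and zfh2 and Lim3 in the cholinergic sort. Optix, a SIX-class factor of eye development, measured 10.06, 10.93 and 8.12 against 7.73, 6.62 and 6.02, a difference of 2.91 ± 0.89. zfh2, a zinc finger homeodomain factor, measured 4.51, 6.29 and 3.53 against 7.38, 6.99 and 9.92. Lim3, a LIM-homeodomain factor of motor neuron identity, measured 3.60, 3.69 and 4.08 against 9.59, 4.59 and 4.68, a separation that rests on cholinergic replicate 1 for its size. Of 72 tested nuclear receptor and zinc finger genes, dac and bab2 lay higher in the dopaminergic sort and bi and br in the cholinergic sort. br, a zinc finger factor of the ecdysone response, measured 9.11, 8.29 and 8.60 against 10.35, 10.44 and 9.76. Over the 3 transcription factor lists the groups did not overlap for 8 of 37, 5 of 50 and 4 of 72 genes, beside 8.51% of all genes. The medians of these lists, in the same order, were 0.04, 0.08 and -0.02, beside 0.07 for all genes. Factors bright in both sorts were scro, at 8.83 to 10.91, jim at 11.02 to 12.15, lola at 10.67 to 12.34, psq at 10.39 to 12.00 and ftz-f1 at 9.29 to 12.09.

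Among the channel lists, calcium genes had the smallest p. Stim, the calcium sensor of the endoplasmic reticulum that opens store-operated entry, measured 7.65, 6.24 and 6.58 on the dopaminergic arrays and 11.48, 12.03 and 10.97 on the cholinergic arrays, a difference of -4.67 ± 1.29. cac, the pore of the presynaptic voltage-gated calcium channel, measured 6.09, 7.62 and 4.53 against 11.43, 10.64 and 9.47 by its brighter probe set, a difference of -4.43 ± 1.61. Both were at least 1 log2 unit apart. A second cac probe set stayed between 5.96 and 6.80 and lay slightly the other way, by 0.44, so the cac difference belongs to 1 probe set. Ca-alpha1D, the L-type channel pore, measured higher in the dopaminergic sort at 8.02, 11.49 and 11.63 against 7.19, 7.17 and 9.01, with overlap.

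Of 40 tested sodium, calcium, chloride, HCN, TRP and gap junction channel genes, 3 lay higher in the cholinergic sort without overlap (Stim, cac and Ca-alpha1T) and 2 in the dopaminergic sort (RyR and Trpm), beside 8.51% of all genes in either direction. RyR, the calcium release channel of the endoplasmic reticulum, measured 6.56, 10.69 and 7.16 against 6.46, 5.88 and 5.50. Of 22 tested potassium channel genes, the groups did not overlap for 2, Shawl and eag, both higher in the dopaminergic sort, and for neither under quantile normalization. The leak channel gene Ork1 measured 3.37, 3.59 and 3.99 against 9.88, 3.60 and 9.99, and the inward rectifier Irk3 measured 5.98, 5.26 and 5.67 against 5.29, 10.06 and 9.98. Each reached a log2 value of 8 on 2 cholinergic arrays and on no dopaminergic array. Without cholinergic replicate 1, Irk3 differed by -4.38 and passed with an adjusted p of 0.0138. Sh, the Shaker channel, was measured by 7 probe sets whose differences ran from -0.75 to 1.29. qvr, a regulator of Shaker and of nicotinic receptors, was bright in both sorts at 10.90 to 12.08.

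Among the dpr, DIP, beat and side genes, beat-Ia had the smallest p. beat-Ia, a secreted immunoglobulin protein that loosens axon bundles, measured 2.80, 3.50 and 2.92 on the dopaminergic arrays and 6.51, 10.20 and 8.51 on the cholinergic arrays, a difference of -5.33 ± 1.08 with an adjusted p of 0.371. beat-Ic, from the same family, measured 3.44, 2.97 and 3.16 against 4.56, 7.40 and 6.53. DIP-gamma, a partner of Dpr proteins in synaptic matching, measured 7.46, 10.02 and 6.54 against 10.63, 11.81 and 11.09. In all 3 genes every cholinergic array was above every dopaminergic array. Of 46 tested dpr, DIP, beat and side genes, 4 lay higher in the cholinergic sort (these and dpr17) and 3 in the dopaminergic sort (side-IV, beat-IIIa and beat-Vb), beside 8.51% of all genes in either direction, with a median difference of -0.06. dpr8 was bright in both sorts at 11.46 to 12.24.

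Of 76 other adhesion and guidance genes tested, the groups did not overlap for 5, all higher in the dopaminergic sort. The share of all genes was 5.37% in this direction and 8.51% in either. Under quantile normalization 1 gene of the list also lay higher in the cholinergic sort. tkv, a type I receptor for BMP ligands, measured 5.26, 9.90 and 9.85 against 4.65, 4.58 and 4.54, with dopaminergic replicate 1 near the cholinergic level, and its second probe set differed by 0.15. Eph, the ephrin receptor, measured 11.91, 9.35 and 10.65 against 6.43, 7.05 and 7.80, a difference of 3.54 ± 1.52. sli, the ligand of Robo receptors, measured 10.25, 10.44 and 9.56 against 8.76, 7.07 and 8.60. The remaining 2 were the atypical cadherin kug and haf. CadN2, an N-cadherin, measured 11.37, 8.71 and 12.19 against 4.55, 5.34 and 10.14, and 1 cholinergic array overlapped. dnt, a Ryk-type Wnt receptor, measured 4.88, 3.40 and 3.20 against 3.68, 10.56 and 9.84. In this list 38 genes measured higher in each sort, and the median was -0.01.

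**Figure D2:**
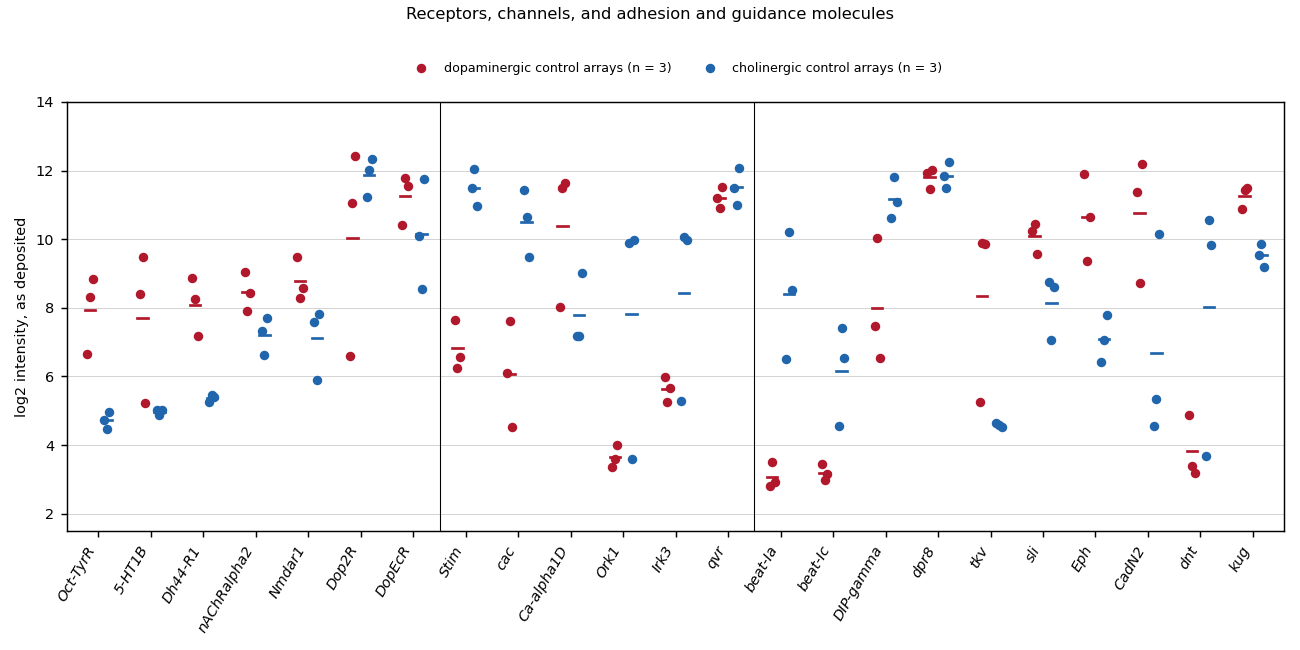
Log2 intensity as deposited (vertical axis) of receptors (left), channels (middle) and adhesion and guidance genes (right) on the 3 dopaminergic (red) and 3 cholinergic (blue) control arrays; points are arrays and short lines group means. Oct-TyrR, tkv and Eph lie higher on the dopaminergic arrays, Stim, cac and beat-Ia on the cholinergic ones, and qvr and dpr8 are bright on all 6.

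Set beside the 5.37% of all genes, the dopamine list had 5 of 8 genes higher without overlap in the dopaminergic sort. This list was drawn up from genes that the label itself stands for. For the receptor, peptide, transcription factor, channel and adhesion lists, the count without overlap was 0 to 5 genes in each direction. These lists hold 10 to 76 tested genes each, so the same count is a different share. In the cholinergic direction the highest count was 5 of 37 bHLH and Sox genes, beside 3.14% of all genes. In the dopaminergic direction it was 5 of 76 other adhesion and guidance genes, beside 5.37%. The medians of the receptor, peptide, transcription factor, channel and adhesion lists ran from -0.14 to 0.33. No member of any list passed at an adjusted p of 0.05.

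**Figure D3:**
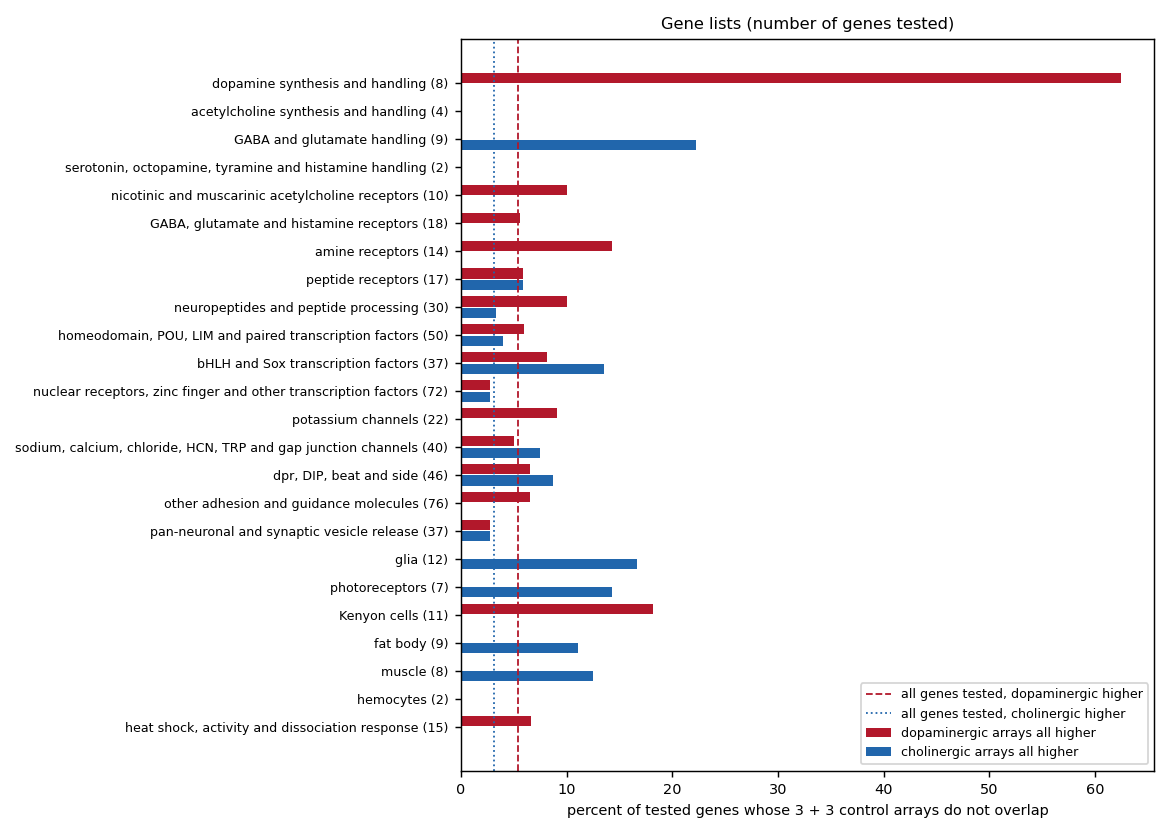
Percent of each list's tested genes (number in brackets) for which all 3 dopaminergic control arrays lay above all 3 cholinergic ones (red bars) or below them (blue bars); the lines mark the same for all 7601 genes, 5.37% (dashed) and 3.14% (dotted). For the dopamine list the red bar covers 5 of 8 genes.

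Of 38 named neuronal and synaptic genes, 12 were bright on all 6 arrays, beside 1.76% of all genes, and none was dim in both. cpx, the complexin that clamps vesicle fusion, ran from 12.57 to 13.28, the kinesin unc-104 from 11.72 to 12.49, Tomosyn from 11.45 to 11.89 and the amyloid precursor homologue Appl from 10.96 to 12.22. The vesicle SNARE nSyb measured 11.29, 11.21 and 10.77 on the dopaminergic arrays and 11.00, 10.91 and 10.83 on the cholinergic arrays, a difference of 0.18 ± 0.56. elav, the RNA-binding protein that marks neurons, measured 11.55, 10.54 and 10.20 against 11.55, 9.07 and 10.89. For both genes the groups overlapped. Of 37 tested, Sytalpha lay higher without overlap in the dopaminergic sort, at 8.28, 9.87 and 5.54 against 5.30, 5.37 and 5.52. In the cholinergic sort it was unc-13, by -0.51 ± 1.21. They were the 2 without overlap, beside 8.51% of all genes in either direction.

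The genes with the highest lowest value over the 6 arrays were Hsp68, CHKov1, Hsp26, cpx, CG5953, DnaJ-1, lncRNA:CR42862, stv, CG17778 and lncRNA:mimi. Of these, 4 are chaperone genes of the heat shock response. Hsp68 ran from 12.88 to 13.27, Hsp26 from 12.72 to 13.01, the co-chaperone DnaJ-1 from 12.52 to 12.91 and stv, a co-chaperone of Hsp70 proteins, from 12.24 to 12.62. Of 15 tested genes of heat shock, activity and dissociation, 7 were bright on all 6 arrays, beside 1.76% of all genes. The list's mean was 9.97 to 10.59 on dopaminergic arrays and 9.60 to 10.56 on cholinergic arrays. Hsc70-4, a constitutive chaperone, was the 1 without overlap, at 11.52, 11.44 and 11.38 against 10.72, 10.15 and 11.00. The share of all genes without overlap was 8.51% in either direction.

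Markers of other cell types were examined on the same arrays. Of 23 named glial genes, 7 lay below the array's median on all 6 arrays, beside 26.8% of all genes. The glial factor repo stayed between 2.67 and 3.08 on all 6 arrays, and the mean of the 23 genes was 5.45 to 5.65 on dopaminergic arrays and 5.48 to 6.39 on cholinergic arrays. From 3 to 4 of the 23 reached a log2 value of 8 on dopaminergic arrays and 2 to 7 on cholinergic arrays. The list's mean was 6.08 and 6.39 on cholinergic replicates 1 and 3, where 7 genes reached 8 on each array. On cholinergic replicate 1 the astrocyte gene alrm was at 8.42, against 4.12 to 5.14 on the others, and loco, a glial regulator of G protein signalling, was at 8.36. Other members of the list were high on dopaminergic arrays, Gs2 at 9.69 and 9.88 on replicates 2 and 3 and GLaz at 8.32 on replicate 2. Eaat2 was at 10.67 to 11.97 on all 6 arrays. Of 12 tested glial genes, 3 measured higher in the dopaminergic sort and 9 in the cholinergic sort. The part of glial RNA in the values of Gat, Gs2 and other genes high on single arrays of either sort was not tested.

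Means of photoreceptor, fat body, muscle and hemocyte markers overlapped between the sorts, at 6.25 to 6.60 against 6.26 to 6.82, 6.15 to 6.71 against 6.03 to 6.84, 5.32 to 6.04 against 5.47 to 6.68, and 4.44 to 4.65 against 4.46 to 4.80. rdgB, the lipid transfer protein of photoreceptors, was an exception at 6.82, 7.82 and 6.11 against 10.52, 9.93 and 8.94, though its other probe set differed by -0.05. sls, the titin-like protein of muscle, measured 8.30, 4.32 and 4.58 against 10.45, 11.56 and 7.52. Kenyon cell genes, which mark the intrinsic neurons of the mushroom body, had means of 7.59 to 8.60 in the dopaminergic sort and 7.23 to 8.32 in the cholinergic sort.

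The 12 genes per direction with the smallest p and no overlap were taken from all tested genes, in the lists or not. Their adjusted p ran from 0.119 to 0.857 (limma). Higher in the dopaminergic sort were CG12868, Fer2, Vmat, Oct-TyrR, ple, trus, rgn, Polr2M, CG13330, JhI-21, Pdh and Klp98A. Fer2, Vmat, Oct-TyrR and ple were also in the lists. CG13330 measured 10.68, 9.57 and 10.78 against 3.69, 3.97 and 4.23, a difference of 6.38 ± 1.47. Its cholinergic values, like those of ple, are near the dim end of the array, where differences have no reliable rank. JhI-21, an amino acid transporter, measured 10.41, 7.99 and 10.74 against 4.57, 5.35 and 4.66. rgn measured 10.73, 11.28 and 9.04 against 6.05, 6.10 and 6.99. Each of these was far above the cholinergic level on all 3 dopaminergic arrays.

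Higher in the cholinergic sort were E(spl)m5-HLH, l(1)G0196, Vps11, beat-Ia, fs(1)K10, CG11699, TRAM, CG1316, mthl7, Nna1, can and mRpL20. Vps11, a subunit of complexes that tether lysosomes and endosomes, measured 4.94, 5.67 and 5.67 against 10.14, 10.53 and 7.67, a difference of -4.02 ± 0.68. On all arrays but the cholinergic controls Vps11 lay below the array's median, so it passed the filter only through the group where it is high. TRAM, a protein of the translocon in the endoplasmic reticulum, measured 5.67, 6.49 and 5.66 against 11.81, 9.78 and 12.05. fs(1)K10, known for its role in the oocyte, measured 4.09, 7.13 and 5.86 against 11.99, 11.99 and 10.50. l(1)G0196, an inositol phosphate kinase gene, measured 3.88, 4.23 and 3.81 against 7.60, 9.11 and 10.22 by 1 of its 5 probe sets, and the other 4 differed by -0.53 to 0.44. can, a TATA-binding-protein-associated factor known from the testis, measured 6.31, 4.92 and 4.25 against 9.68, 11.46 and 10.01. Of these 12, E(spl)m5-HLH and beat-Ia were also in one of the lists.

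**Figure D4:**
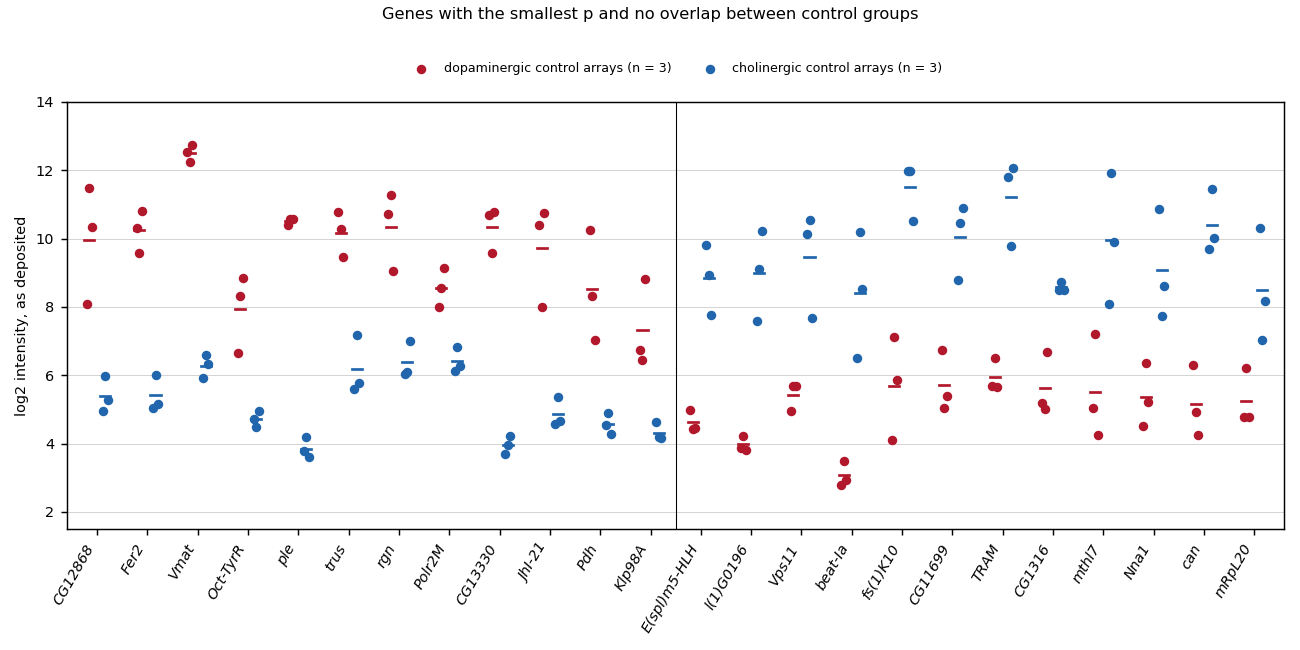
Log2 intensity as deposited (vertical axis) of the 12 genes per direction with the smallest p among genes whose control groups did not overlap, higher in the dopaminergic sort left of the line and in the cholinergic sort right of it. Points are arrays, dopaminergic red and cholinergic blue, and short lines group means; the genes were chosen on these values, so the gap is part of the choice.

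The 6 mutant arrays measured the same sorts in other pools, and share with the controls the filter and the estimate of the spread. Of the 12 genes higher in dopaminergic controls, 7 had the same sign in mutants and 4 had no overlap in the same direction: ple at 3.70, Vmat at 3.62, Fer2 at 1.64 and JhI-21 at 4.22. Without dopaminergic mutant replicate 3 these became 5.24, 4.47, 2.07 and 5.58, and 6 of the 12 had the same sign. Of the 12 higher in cholinergic controls, 9 had the same sign and 1 had no overlap, beat-Ia at -4.29 (10 and -4.53 without that array). E(spl)m5-HLH measured 4.63, 4.81 and 5.09 in dopaminergic mutants and 4.43, 4.32 and 5.59 in cholinergic mutants, so that for the gene with the smallest p in controls the mutant groups overlapped. VAChT, not separated in controls, differed by -4.03 in mutants without overlap (adjusted p 0.45, limma), and by -3.38 without that array. Its difference in mutants minus that in controls was -2.83 ± 1.63 (adjusted p 0.773, limma), so a change between genotypes was not shown.

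Over all genes, of the 408 higher in dopaminergic controls 47 were also higher without overlap in mutants, 11.5% of that list and 7.22% of the 651 genes so called in mutants (8.56% of genes tested). Another 16 were apart in the opposite direction. Of the 239 higher in cholinergic controls, 21 were also apart in mutants, 8.79% of that list and 5.72% of the 367 genes so called (4.83%), and 14 were apart the opposite way. A positive sign in mutants was held by 56.6% of the first list and 56.2% of all genes, and a negative sign by 59.4% of the second list and 43.8% of all genes. In mutants 2 of 12460 probe sets passed at an adjusted p of 0.05 (0.0161%). The test of the difference between the comparisons, mutants minus controls, passed for 0 probe sets in limma (0.00%), with 645 at an unadjusted p of 0.05 (5.18%).

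**Figure D5:**
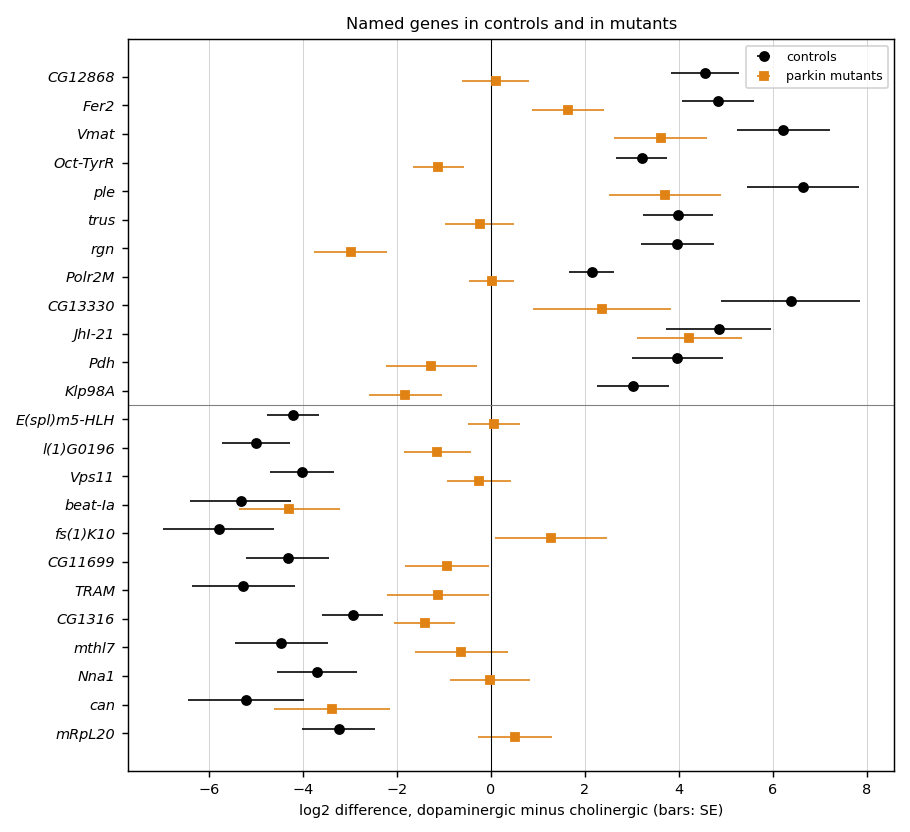
Log2 difference, dopaminergic minus cholinergic (horizontal axis, bars are limma SE), of the 24 named genes in controls (black circles) and in parkin mutants (orange squares); genes above the grey line were higher in dopaminergic controls. ple, Vmat, Fer2 and JhI-21 stay right of 0 and beat-Ia stays left of 0 in both, while Oct-TyrR and rgn cross it.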

How the data were processed

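Sorted neuron pools were hybridised to Affymetrix Drosophila 2.0 arrays, 1 array per pool. The deposited values are log2 intensities per probe set, as deposited by the authors, and were used without further scaling. How they were summarised and normalized is not given in the sources used here. Of 18952 probe sets, 183 control ones were left out, and 13647 were named through the platform annotation with 1 symbol. The filter kept 12460 at or above their array's median (50th percentile) on at least 3 arrays. Gene counts used the probe set with the highest mean.

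limma 3.58.1 in R 4.3.3 (lmFit, eBayes with trend, 2-sided, Benjamini-Hochberg over 12460) was fitted on all 12 arrays with 1 coefficient per group. The fit was tested on simulated data. Genes and the 24 lists were chosen with earlier results of these data known: transmitter genes, 12 per direction by p without overlap, up to 4 per list by p or brightness, and the 10 brightest shared genes. Others are named where a small count or a low array singled them out after their values were seen. Alternatives were quantile normalization, centring, other filters and moderation, array weights, only 6 arrays, a title code block, averaging all probe sets per gene, a threshold of 0.1 and leaving out each array. Python 3.11.15 and matplotlib 3.10.9 drew the plots.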

Additional observations from a re-analysis of the deposited data

Results flagged for a closer look

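In 3 named genes the control arrays lay apart in one direction and the mutant arrays in the other. Oct-TyrR, the octopamine and tyramine receptor, measured 4.58, 5.38 and 5.60 in dopaminergic mutants and 5.96, 6.21 and 6.77 in cholinergic mutants, and its difference in mutants minus that in controls was -4.33 ± 0.78 (adjusted p 0.326, limma). rgn measured 6.76, 8.32 and 7.02 against 10.43, 10.37 and 10.26, and its difference changed sign by -6.96 ± 1.09 (adjusted p 0.326). Burs, a subunit of the hormone bursicon, measured 6.77, 7.12 and 7.89 against 5.70, 5.76 and 6.13, with a change of 3.44 ± 1.19 (adjusted p 0.773). None passed the test of the difference. Over all genes, 16 of 408 higher in dopaminergic controls and 14 of 239 higher in cholinergic controls were likewise apart the other way in mutants.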

How the results depend on the processing

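The count of probe sets past an adjusted p of 0.05 in controls was 0 and stayed 0 in 15 of 24 alternatives. It was 1 with no filter, 3 with the filter over the 6 control arrays, 6 with array weights and 1 with only the 6 arrays compared. Leaving out 1 array gave 0 to 5. The count was 5 when dopaminergic mutant replicate 2 was dropped. Among the controls it was 1 and 4 when dopaminergic replicates 1 and 3 were dropped, and 4 and 2 when cholinergic replicates 1 and 3 were. ple, E(spl)m5-HLH and l(1)G0196 passed in 3 alternatives each, and CG13330, Fer2 and Vmat in 2 each. CG12868, Vps11, Irk3, CG12229, CG33169, Tsp66E and wda passed in 1 each. The other probe sets that passed had no single gene symbol. In mutants the count of 2 became 0 with only the 6 arrays compared, and leaving out 1 array gave 0 to 112, the highest without dopaminergic mutant replicate 2. The test of mutants minus controls gave 0 to 3. The 211 genes bright in both sorts became 601 at the 80th percentile and 236 to 267 without 1 array.

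Among 111 genes followed, 13 changed sign in some alternative, and none of their differences passed in any fit. ChAT moved from 0.24 to -0.07 with the title code as a block. Without 1 array ChAT ran from -0.13 to 0.93, Gad1 from -4.04 to 0.24, VGAT from -0.63 to 1.60, Tbh from -1.74 to 1.61, nAChRalpha5 from -0.25 to 1.81, Arr2 from -0.33 to 0.01, fit from -0.22 to 1.20, Desat1 from -2.38 to 0.25, Yp3 from -0.09 to 1.03, Col4a1 from -0.06 to 1.11, NimC1 from -0.03 to 0.33 and puc from -0.61 to 2.53. ChT ran from -0.23 to 3.1, the lowest without cholinergic replicate 2. The cause was not tested. ple ran from 6.43 to 6.82 over all alternatives, with adjusted p from 0.00321 to 0.477, Fer2 from 4.44 to 5.15 and beat-Ia from -6.28 to -4.44. Under quantile normalization and centring, the dopamine list kept 5 of 8 genes without overlap. The labels give no replicate numbers that pair arrays across groups. The first letter of the title codes, whose meaning is not given, was used as a block in their place, and 0 probe sets passed in controls, with 522 at an unadjusted p of 0.05 (limma).

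The 3 arrays per group limit what can be called, and a probe set near the array's median gives only a dim signal, so low values such as those of ple on the cholinergic arrays have no reliable order.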
